A study of Mus musculus with 45 samples.

Results

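Poly-A RNA was compared between 5 mouse hippocampal cultures taken after 0.5 h of bicuculline (0.5 h Bic) and 5 cultures of the same preparations that received tetrodotoxin (TTX) at that time and were taken 0.5 h later, still in bicuculline (short protocol, SP TTX). The 0.5 h Bic group gives each mRNA's level at the time TTX was added, so the comparison asks what became of every mRNA during the next 0.5 h without action potential (AP) firing. These are 10 of the 45 libraries of the series, and 15091 of the 54532 genes in the count table had enough reads to be tested.

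All cultures were primary hippocampal cells from newborn C57BL/6N mice, grown with B27 supplement and rat serum, and given the mitotic blocker AraC early on, and no NMDA was added in the groups described here. Bicuculline was used at 50 µM and TTX at 1 µM. Levels are also given for untreated cultures (control), for 1 h and 2 h of uninterrupted bicuculline (1 h Bic, 2 h Bic) and for a long protocol of 1 h bicuculline followed by 1 h with TTX added (LP TTX), each from the same 5 culture preparations, which carry the numbers 1, 3, 6, 7 and 8. A culture holds several cell types and the RNA of a whole well was read, so fewer cells of a type and less RNA per cell cannot be told apart. Levels are CPM, each count as a share of the TMM-scaled library total, with mean ± SD over 5 libraries; they are not divided by gene length, so levels of different genes are not compared.

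Bicuculline blocks GABA-A receptors and, with inhibition removed, hippocampal networks fire in synchronous bursts. Calcium entering through synaptic NMDA receptors and voltage-gated channels then acts through kinases on factors already bound at promoters, such as CREB and SRF, and immediate-early genes are transcribed within minutes. TTX closes voltage-gated sodium channels and so ends AP firing. After that, an mRNA's level depends on how quickly transcription stops, how long transcripts already begun take to finish, and how fast the mRNA decays.

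Library totals ran from 12338915 to 27638221 counts in 0.5 h Bic and from 23060670 to 74009760 in SP TTX. The deeper SP TTX libraries measured low genes more precisely, and with all 10 libraries thinned to the shallowest, 86 rises and 6 falls were called, of which 82 and 5 are among those below. The 0.5 h Bic library of preparation 1 was the shallowest and had the lowest level of the 5 for 193 of the 438 tested genes that 1 h Bic raised over control (44.1%), against 26 to 105 genes for each of the other 4. In 1 h Bic the library of preparation 3 was lowest for 194 of the 438 genes (44.3%). In control the library of preparation 3 was lowest for 176 (40.2%). Without preparation 1 the 60 rises called were all among the 93 below, and 4 of the 6 falls were among the 8. Neuronal markers were abundant, with a summed level of 6737 to 7393 CPM before and 6529 to 7643 CPM after TTX. No marker of any of 6 cell types was called between the groups. All 7 astrocyte markers had a higher fitted level after TTX (median log2 difference 0.27), with a summed level of 986 to 1101 CPM in 0.5 h Bic and 1012 to 1548 CPM in SP TTX, higher in 4 of 5 preparations. All 3 GABAergic markers had a lower one (median -0.16), with sums of 1243 to 1633 and 1199 to 1586 CPM, lower in 5 of 5 preparations. The part of these shifts in the results below was not tested. Microglial RNA was near 0, at 4.43 to 6.44 CPM before and 5.43 to 8.29 CPM after TTX, higher in 5 of 5 preparations, with Cx3cr1, P2ry12, Tmem119 and Aif1 too low to test.

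After 0.5 h of TTX, 93 genes were higher than when it was added (0.616% of genes tested) and 8 were lower (0.0530%), 101 in all (0.669%). At an unadjusted p under 0.05 there were 627 higher and 285 lower genes. Each of the 93 rises was seen in 5 of 5 preparations, and 7 of the 8 falls were. The rises had a median log2 fold change of 0.52 and ran from 0.26 to 2.09. Of these, 16 reached 2-fold and 56 stayed under 1.5-fold. The median over all genes tested was -0.0012. Without the preparation block there were 48 rises and 4 falls, all among those 101 genes. Without preparation 1 there were 60 rises and 6 falls, without preparation 3 there were 54 and 4, and without preparation 8 there were 72 and 4.

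**Figure D1:**
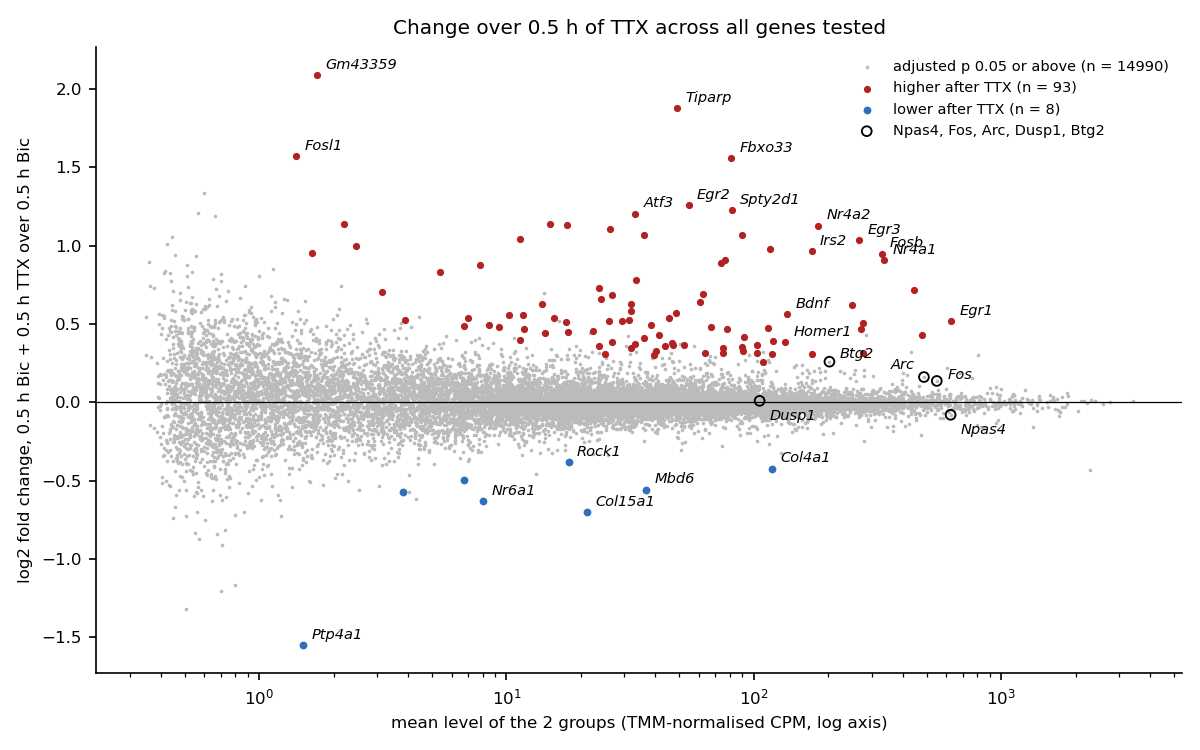
Log2 fold change of SP TTX over 0.5 h Bic (vertical axis) against the mean level of both groups in CPM (horizontal log axis), 1 point per gene for 15091 genes. Red points are the 93 genes that rose and blue points the 8 that fell; open circles mark Npas4, Fos, Arc, Dusp1 and Btg2, which lie between -0.08 and 0.26 at high levels.

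Many of the best-known immediate-early mRNAs had no called change from the level they had when TTX was added, and were called lower than in cultures that kept firing for the same time. Npas4 (chr19:4984355-4990316 in GRCm38) encodes an activity-specific transcription factor that shapes inhibitory synapses. Its level in preparations 1, 3, 6, 7 and 8, in that order here and below, was 539.8, 669.8, 615, 687 and 679.5 CPM at 0.5 h Bic. It was 643, 604, 539.5, 596 and 675 CPM after TTX. In 1 h Bic it was 1458, 1033, 1285, 1460 and 1540 CPM. The levels before and after TTX overlapped and every 1 h Bic library was higher than both. The log2 fold change over the block was -0.08 (95% interval -0.23 to 0.07, adjusted p = 1), and SP TTX minus 1 h Bic was -1.15 (95% interval -1.30 to -1.0, adjusted p = 3.4e-06) on the log2 scale. Set against control (47.1 ± 15.2 CPM), 96.5 ± 14.9% of the induction present at 0.5 h was still there after TTX.

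Fos, the AP-1 subunit used everywhere as a mark of active neurons, stood at 417, 556, 543, 559 and 529.6 CPM at 0.5 h Bic. After TTX it stood at 585, 617, 560.2, 563 and 562 CPM. Every SP TTX library lay above every 0.5 h Bic library, by little for preparations 6, 7 and 8, and the difference was not called, at 0.14 (95% interval -0.01 to 0.29, adjusted p = 0.89). In 1 h Bic the level was 1089, 869, 1068, 1089 and 1070 CPM, and SP TTX minus 1 h Bic was -0.85 (95% interval -0.99 to -0.71, adjusted p = 2.6e-05). The level after TTX was 113 ± 17.9% of the induction at 0.5 h.

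Arc, a cytoskeletal protein that removes AMPA receptors from synapses, had 425, 419, 446, 428 and 560.3 CPM before TTX. It had 546, 463, 510.4, 416 and 659 CPM after it. Preparation 8 was highest in both groups and the groups overlapped. The fitted difference was 0.16 (95% interval 0.03 to 0.29, adjusted p = 0.59), and SP TTX minus 1 h Bic (889 ± 199 CPM) was -0.78 (95% interval -0.91 to -0.64, adjusted p = 4.2e-05). The share of induction kept was 115 ± 12.3%.

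Dusp1, the phosphatase that switches off MAP kinases, had 80.8, 114, 106, 124 and 98.2 CPM before and 122, 109.5, 89.5, 109 and 102 CPM after TTX. Preparation 1 was lowest before and highest after, and preparations 3, 6 and 7 were lower after TTX than before. The difference was 0.01 (95% interval -0.20 to 0.22, adjusted p = 1) with all 5 preparations and -0.13 without preparation 1. In 1 h Bic, Dusp1 was at 216 ± 25.5 CPM, and SP TTX minus 1 h Bic was -1.03 (95% interval -1.18 to -0.88, adjusted p = 1.1e-05).

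Btg2, an anti-proliferative gene whose protein helps deadenylate mRNAs, was at 183 ± 27.5 CPM before and 221 ± 21.7 CPM after TTX (log2 fold change 0.26, 95% interval 0.06 to 0.46, adjusted p = 0.56) and at 352 ± 29.4 CPM in 1 h Bic. Its level rose by 71.9% over the block in preparation 1 and by 0.1 to 24.5% in the others. Gadd45g, a DNA-damage and growth-arrest gene, was at 129 ± 2.5 CPM before and 139.8 ± 16.2 CPM after TTX (log2 fold change 0.09, 95% interval -0.05 to 0.23, adjusted p = 1), with 267 ± 49.4 CPM in 1 h Bic. Both were called lower in SP TTX than in 1 h Bic, with log2 differences of -0.68 and -0.93. The intervals of these 6 genes reached from -0.23 to 0.46, and changes within each gene's own interval are not excluded.

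Ccn1 and Sox9 had negative values. Ccn1 encodes a secreted matrix protein and Sox9 a transcription factor typical of glia, and both are named here after their values were seen. Ccn1 stood at 113, 142, 151, 160.0 and 146 CPM before and 154, 119, 108, 106 and 95.2 CPM after TTX. It was higher after TTX in preparation 1 and lower in the other 4. With all preparations the difference of -0.33 was not called (adjusted p = 0.63); without preparation 1 it was -0.51 and was called (adjusted p = 0.0091). Against 1 h Bic (329 ± 39.1 CPM), the SP TTX difference was -1.52 (95% interval -1.65 to -1.39, adjusted p = 5.5e-08). Sox9 was at 30.4 ± 7.46 CPM before and 27.5 ± 5.77 CPM after TTX (log2 fold change -0.16, 95% interval -0.39 to 0.06, adjusted p = 0.98) and at 61.1 ± 15.7 CPM in 1 h Bic.

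**Figure D2:**
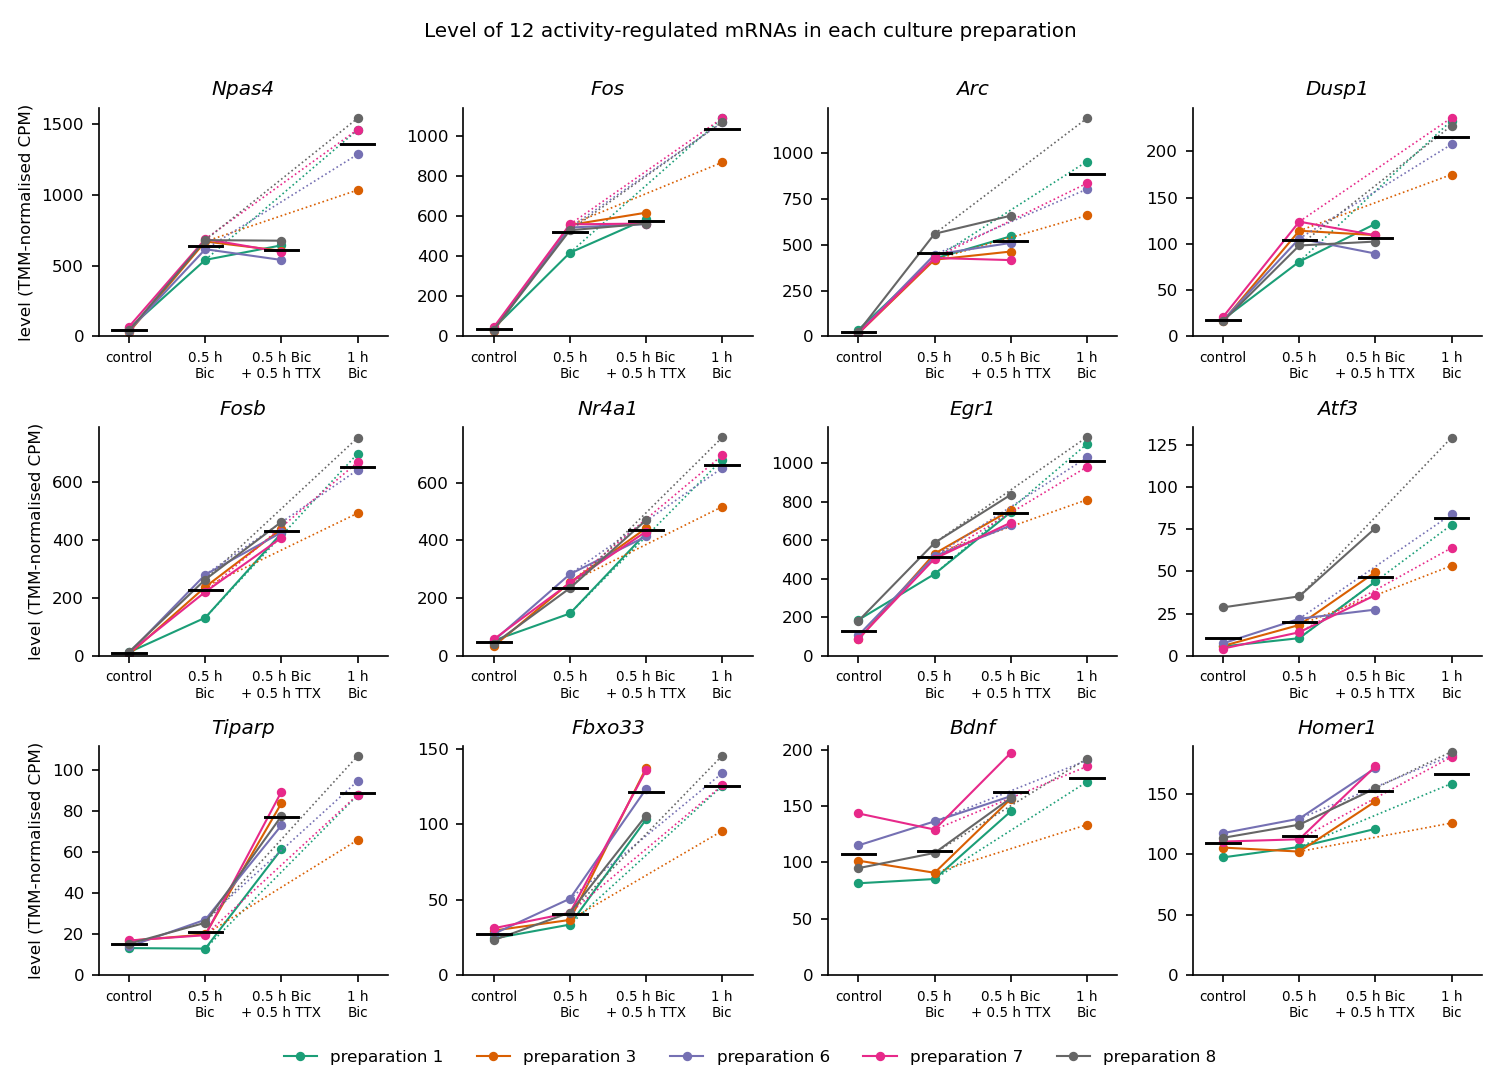
Level of 12 mRNAs in CPM (vertical axes) in control, 0.5 h Bic, 0.5 h Bic + 0.5 h TTX and 1 h Bic, with 1 coloured point per culture preparation, lines joining libraries of 1 preparation and black bars at the mean of 5. Solid lines lead to the TTX libraries and dotted lines to 1 h Bic. The means of Npas4, Fos, Arc and Dusp1 change little under TTX, although preparation 1 rises. Fosb, Nr4a1, Egr1 and Atf3 climb but were called lower than in 1 h Bic, without overlap for Fosb and Nr4a1. Tiparp, Fbxo33, Bdnf and Homer1 climb to overlap 1 h Bic, with no called difference from it.

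A second group of transcription factor mRNAs kept accumulating after TTX but ended below 1 h Bic. Fosb, another AP-1 subunit, which builds up with repeated activity, had 131, 237, 279.8, 220.3 and 263 CPM before TTX. It had 423, 437, 426, 407 and 462 CPM after it and 698, 492, 641, 668 and 752 CPM in 1 h Bic. All SP TTX libraries lay above all 0.5 h Bic libraries and below all 1 h Bic libraries. The rise was 0.95 (95% interval 0.69 to 1.21, adjusted p = 0.0015), or 0.77 without preparation 1, whose 0.5 h Bic level was the lowest. SP TTX minus 1 h Bic was -0.59 (95% interval -0.75 to -0.43, adjusted p = 0.0014).

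Nr4a1, an orphan nuclear receptor that limits dendritic spine density, stood at 147, 254, 283, 253 and 235 CPM before and 425, 442, 414, 431 and 471 CPM after TTX. Here too the groups did not overlap, with a rise of 0.91 (95% interval 0.67 to 1.15, adjusted p = 0.0012) and 0.76 without preparation 1. In 1 h Bic its level was 660.5 ± 88.9 CPM, higher than in SP TTX in 5 of 5 preparations (SP TTX minus 1 h Bic -0.60, 95% interval -0.74 to -0.45, adjusted p = 0.00059).

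Egr1, a zinc finger factor of synaptic plasticity, had 425, 531, 517, 505 and 587 CPM before TTX. It had 747, 758, 678, 692 and 837 CPM after it. The rise of 0.52 (95% interval 0.38 to 0.66, adjusted p = 0.0015) had no overlap between the groups, and SP TTX minus 1 h Bic (1012 ± 128 CPM) was -0.45 (95% interval -0.59 to -0.31, adjusted p = 0.0059). Egr4 rose by 0.51 (226 ± 18.1 to 326 ± 39.3 CPM) and Jun by 0.31 (245 ± 20.4 to 309 ± 25 CPM), and both stayed below 1 h Bic (log2 differences -0.63 and -0.59). The calls of Egr1, Egr4 and Jun were lost when the spread was estimated from all 45 libraries (0.11 and 0.077 for Egr1 and Egr4, adjusted p). That of Jun was also lost without the block and without preparation 1, 3 or 8.

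Atf3, a stress-responsive bZIP factor, varied more between preparations. It had 10.4, 18.2, 21.9, 13.9 and 35.2 CPM before and 44, 49.5, 27.3, 35.9 and 75.6 CPM after TTX. Preparation 8 was highest in both groups and also untreated. The groups overlapped, and Atf3 was higher after TTX in 5 of 5 preparations. The rise was 1.21 (95% interval 0.84 to 1.57, adjusted p = 0.0036), and SP TTX minus 1 h Bic (81.5 ± 29.2 CPM) was -0.85 (95% interval -1.16 to -0.53, adjusted p = 0.018). Without the preparation block, Atf3 was not called (adjusted p = 0.16).

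Other genes that rose and stayed below 1 h Bic had wider roles. Spty2d1, a histone chaperone, went from 48.6 ± 11 to 114 ± 4.87 CPM (log2 fold change 1.23, 95% interval 0.99 to 1.47, adjusted p = 9.4e-05), with 155 ± 16.1 CPM in 1 h Bic. Ptgs2, which encodes the prostaglandin-making enzyme COX-2, went from 16.2 ± 4.87 to 36.1 ± 10.2 CPM (1.11, adjusted p = 0.01), a call lost without preparation 1, 3 or 7. Maff, a small Maf factor without an activation domain, went from 7.37 ± 2.64 to 15.4 ± 3.45 CPM (1.04). Their log2 differences from 1 h Bic were -0.45, -0.53 and -0.66. Sik1, a kinase that restrains CREB coactivators, rose by 0.69 and Gadd45b by 0.54, and they were -0.47 and -0.76 from 1 h Bic.

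Many of the larger rises came to a level with no called difference from that of 1 h of unbroken firing. Tiparp (chr3:65528410-65555518), a mono-ADP-ribosyltransferase, rose most among genes above 5 CPM. It had 12.9, 19.8, 26.9, 19.4 and 25.5 CPM at 0.5 h Bic. After TTX it had 61.2, 83.6, 72.9, 89.2 and 77.4 CPM. The lowest level after TTX was well above the highest before it. Its control level was 15.2 ± 1.65 CPM, so most of the increase over control came after TTX was added. The rise was 1.88 (95% interval 1.63 to 2.12, adjusted p = 4.7e-06). Against 1 h Bic, where Tiparp had 87.5, 65.7, 94.4, 87.7 and 107 CPM, the difference was -0.21 (95% interval -0.43 to 0.02, adjusted p = 0.66), and SP TTX was the lower in 3 of 5 preparations.

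Fbxo33 (chr12:59200655-59219725), the substrate-binding subunit of a ubiquitin ligase, had 33.5, 36.6, 50.7, 41.3 and 41.5 CPM before TTX. It had 103, 137, 123, 136 and 106 CPM after it, again without overlap. The rise was 1.56 (95% interval 1.37 to 1.75, adjusted p = 3.8e-06), and the difference from 1 h Bic (125 ± 18.5 CPM) was -0.06 (95% interval -0.29 to 0.17, adjusted p = 0.93). Egr2, a zinc finger factor related to Egr1, had 20.1, 34.1, 39.9, 31 and 35 CPM before and 71.3, 87.4, 79, 69 and 77.7 CPM after TTX. It rose by 1.26 (95% interval 1.05 to 1.47, adjusted p = 2.2e-05), and its interval against 1 h Bic was -0.36 to 0.03. Egr3 went from 175 ± 34.2 to 359.9 ± 37.5 CPM (log2 fold change 1.04, 95% interval 0.91 to 1.17, adjusted p = 3.8e-06), beside 355 ± 77.8 CPM in 1 h Bic. The 1 h Bic library of preparation 3 was often the lowest of its group. In that preparation Tiparp, Fbxo33, Egr2 and Egr3 were higher in SP TTX than in 1 h Bic. In the other preparations the order differed between genes. Without preparation 3, 110 genes were called lower in SP TTX than in 1 h Bic, against 71 with all preparations.

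Other named rises of this kind were spread over cell functions. Nr4a2, an orphan receptor related to Nr4a1, went from 115 ± 28.4 to 250.1 ± 40.6 CPM and Csrnp1, a nuclear protein of the immediate-early class, from 9.32 ± 1.74 to 20.8 ± 2.14 CPM. Arl5b, a small GTPase of the Golgi, went from 57.5 ± 7.6 to 122 ± 20.4 CPM and Zbtb10, a zinc finger repressor, from 23 ± 1.79 to 48.9 ± 7.25 CPM. Cfap43, named for cilia and flagella, went from 11 ± 2.11 to 24.3 ± 1.92 CPM. The log2 rises of these 5 genes were 1.13, 1.14, 1.07, 1.07 and 1.13, with adjusted p between 1.1e-05 and 2.2e-05. Their intervals against 1 h Bic were -0.54 to -0.16, -0.30 to 0.10, -0.25 to 0.14, -0.24 to 0.15 and -0.25 to 0.11. That of Nr4a2 lies below 0, although its adjusted p was 0.15. Csrnp1 shares bases with the microglial gene Cx3cr1 on the same strand, and reads in any exon they share were not counted.

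Among secreted and synaptic effectors, Bdnf, Homer1 and Inhba were near their control level when TTX was added and rose afterwards, with log2 differences of 0.5 h Bic from control of 0.05, 0.08 and 0.01. Bdnf, the growth factor brain-derived neurotrophic factor, was at 107 ± 23.6 CPM in control. It had 85.2, 90.8, 136, 129 and 108 CPM at 0.5 h Bic and 145, 156, 159, 197 and 157 CPM after TTX. The groups did not overlap and the rise was 0.56 (95% interval 0.39 to 0.73, adjusted p = 0.0036). In 1 h Bic it had 174 ± 24.4 CPM, and the SP TTX difference was -0.10 (95% interval -0.27 to 0.06, adjusted p = 0.77).

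Homer1 encodes a postsynaptic scaffold, and activity makes a short form that loosens it, which gene counts do not tell from the long form. It had 106, 102, 129.7, 113 and 125 CPM before and 121, 144, 172, 173 and 155 CPM after TTX, and the groups overlapped through the low level of preparation 1 after TTX. The rise was 0.39 (95% interval 0.25 to 0.53, adjusted p = 0.012) and the interval against 1 h Bic -0.28 to 0.02. Its call was lost without preparation 3 (adjusted p = 0.1) or preparation 7 (0.057), and in the fit over all 45 libraries (0.051). Inhba, which encodes the activin A subunit, had 7.2, 7.26, 9.43, 7.48 and 7.11 CPM before and 11.8, 10, 14.2, 11.3 and 7.89 CPM after TTX. It rose by 0.48 (95% interval 0.29 to 0.68, adjusted p = 0.027), least in preparation 8, and the call was lost without preparation 1, 3 or 7. Bdnf, Homer1 and Inhba were not called without the preparation block (adjusted p = 0.09, 0.17 and 0.35).

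**Figure D3:**
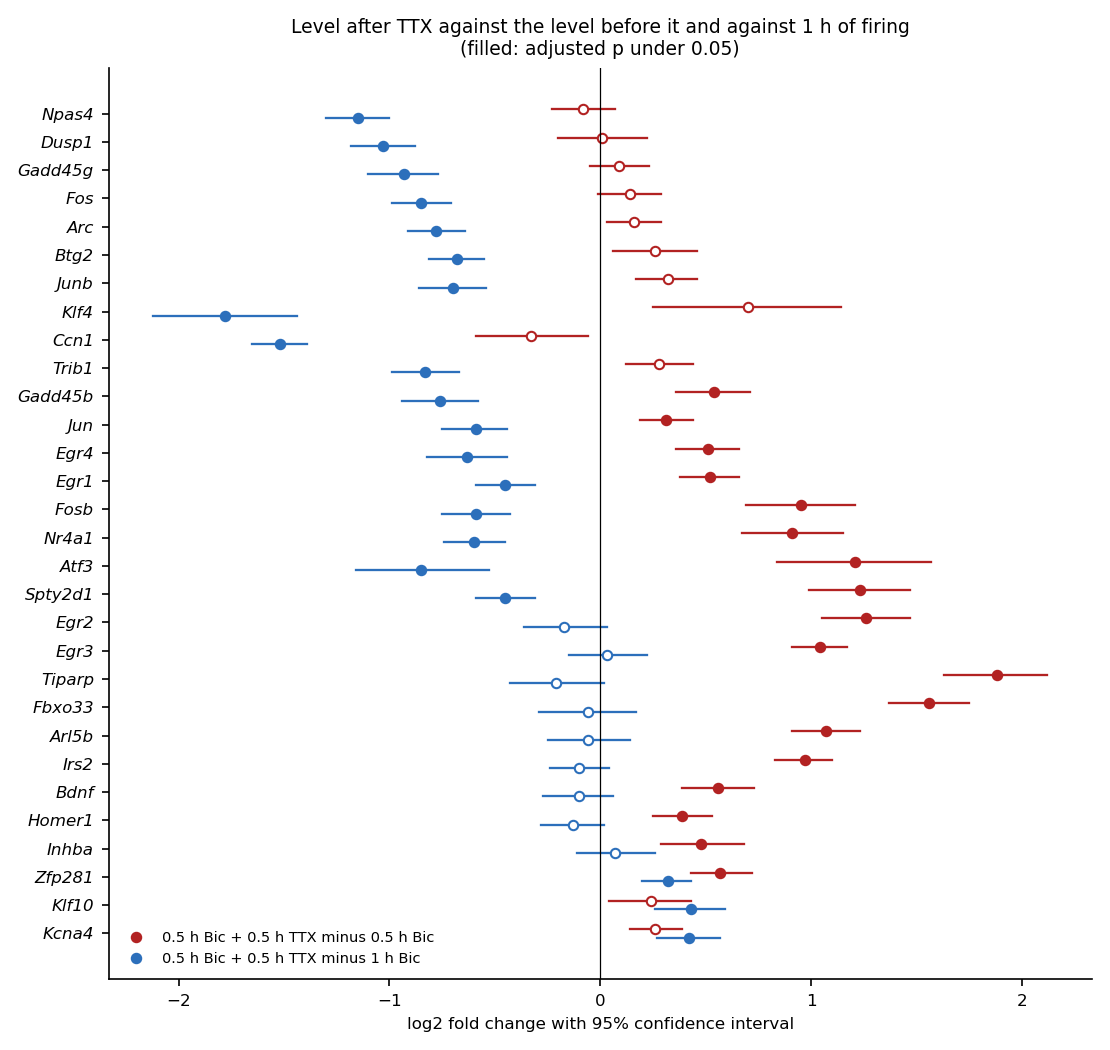
Log2 fold change (horizontal axis, with 95% intervals) of SP TTX over 0.5 h Bic in red and over 1 h Bic in blue for 30 genes; filled points have an adjusted p under 0.05. The SP TTX libraries enter both sets. The genes were put in order by hand. Toward the top most red points lie near 0 and blue points well below it, as for Npas4 at -1.15. Further down most red points lie above 0 and blue points come nearer to 0, as for Fbxo33 at -0.06. At the bottom, Zfp281, Klf10 and Kcna4 have blue points above 0.

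In the comparison of SP TTX with 1 h Bic, 71 genes were lower (0.457% of 15540) and 5 were higher (0.0322%), 0.489% in all. The 5 higher genes were Zfp281, a zinc finger factor of pluripotent cells, the potassium channel gene Kcna4, the growth-factor-induced factor Klf10, the deubiquitinase Yod1 and the thioredoxin-binding Txnip. Zfp281 was itself raised over the block, from 38.9 ± 4.73 to 58.4 ± 2.33 CPM (log2 fold change 0.57, 95% interval 0.43 to 0.72, adjusted p = 0.00091), and 1 h Bic had 46.7 ± 1.92 CPM, lower than SP TTX in 5 of 5 preparations. The others were not called over the block, with log2 differences of 0.26 for Kcna4, 0.24 for Klf10, 0.09 for Yod1 and 0.51 for Txnip. Without preparation 7 or preparation 8, none of the 5 was called against 1 h Bic, and without preparation 6 there were 53 higher genes. Against control, 205 genes were higher in SP TTX (1.33%) and 13 lower (0.0844%).

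The 8 falls were few and mostly small. Mbd6, Col4a1 and Ptp4a1 were the 3 of them called higher in 0.5 h Bic than in control, by 0.81, 0.43 and 2.28 on the log2 scale (0.541% of all genes were called higher there). The same 0.5 h Bic libraries enter this comparison and the falls. The calls are therefore not independent, and this count is not a test. Mbd6 (chr10:127281956-127289018), a methyl-CpG-binding domain protein, was at 25.6 ± 6.65 CPM in control and 35.6, 47.9, 46, 47.5 and 40 CPM in the 5 libraries at 0.5 h Bic. After TTX it had 31.4, 34.1, 27.9, 25.3 and 31 CPM, below every library before TTX. Its log2 fold change was -0.56 (95% interval -0.75 to -0.36, adjusted p = 0.01), and in 1 h Bic it was at 45 ± 5.65 CPM, higher than in SP TTX. Of the other 7, Ptp4a1 (2.4 ± 0.621 CPM in 1 h Bic) was also called lower than in 1 h Bic. The remaining 6 were not, with 1 h Bic at 15.6 CPM for Rock1, 5.81 CPM for Zfp39, 3.13 CPM for Slc31a2, 17.6 CPM for Col15a1, 109 CPM for Col4a1 and 8.19 CPM for Nr6a1. Nr6a1, an orphan nuclear receptor of germ cells, went from 9.72 ± 0.915 to 6.38 ± 0.396 CPM (log2 fold change -0.63, 95% interval -0.82 to -0.44, adjusted p = 0.0034). Col15a1, a basement membrane collagen, went from 26.2 ± 8.2 to 16.1 ± 4.44 CPM (-0.70, adjusted p = 0.0014), with 5 of 5 preparations lower although the groups overlapped.

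Zfp39, a zinc finger gene, went from 7.82 ± 0.754 to 5.62 ± 0.446 CPM (-0.50). Rock1, a kinase that acts on the actin skeleton, went from 19.5, 19.6, 20.8, 19.1 and 21.2 to 14.7, 16.1, 15.2, 17.6 and 14.6 CPM (log2 fold change -0.38, 95% interval -0.54 to -0.22, adjusted p = 0.035); the level after TTX was near that of control (15.8 ± 2.02 CPM). The call of Rock1 was lost without preparation 1, 3 or 8 (adjusted p = 0.18, 0.13 and 0.21) and with libraries thinned to equal depth (0.14). Of the 12 alternatives, 8 ended the call of Slc31a2, DESeq2 with the block among them, 6 that of Zfp39, 6 that of Col4a1 and 1, without the block, that of Col15a1. Mbd6, Nr6a1 and Ptp4a1 were called in all 12. The remaining falls, named after their values were seen, were the collagen gene Col4a1 (-0.42), the copper transporter gene Slc31a2 (-0.57, at 3.07 CPM after TTX) and the phosphatase gene Ptp4a1 (-1.55). Ptp4a1 was the fall of more than 2-fold, from 2.22 ± 0.956 to 0.783 ± 0.157 CPM. Its value is uncertain, since 2 overlapping gene models on the same strand carry its name and reads in the shared part were not counted. Of the vascular and fibroblast markers, which belong to cells that make such collagens, none of 5 tested was called, with sums of 47.8 to 87.9 CPM before and 46.9 to 86.2 CPM after TTX.

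Grouped by role, 38 of the 93 rises were members of 10 lists drawn from known activity-response and housekeeping genes. These lists were drawn up with earlier results of these data known, so their counts describe them and are not a test. Of 35 activity-induced transcription factors, 18 rose and none fell, with a median log2 fold change of 0.393, against 0.616% of all genes rising and a median of -0.0012. Besides those above they were Fosl1 (1.57, at 2.12 CPM after TTX), Nr4a3 (0.72), Nfil3 (0.64), Fosl2 (0.62), Bhlhe40 (0.46), Per1 (0.39) and Klf9 (0.31). Per1 and Klf9 were each not called in 4 of the 12 alternatives. Of the 17 not called, 15 had positive values, including Junb at 0.32 (adjusted p = 0.058) and Ier2 at 0.32 (adjusted p = 0.065). Klf4 had a value of 0.70 with a wide interval of 0.25 to 1.14. Of the 12 alternatives, 7 left Junb not called, 8 Ier2 and 9 Klf4. The others called them, such as DESeq2 with the block for Junb and Ier2, and the fit without preparation 6 for Klf4.

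Of 28 synaptic and secreted effectors, 9 rose and none fell (32.1%, against 0.669% of all genes called; median 0.236). Beside Ptgs2, Bdnf, Inhba and Homer1 they were Rasl11a (0.52), Plk2 (0.47), Pcdh8 (0.43), Nptx2 (0.37) and Plat (0.33). Plk2 is a kinase that weakens overactive synapses, Nptx2 a pentraxin that gathers AMPA receptors, and Plat the protease tPA. Plk2 went from 227 ± 25.2 to 316 ± 8.05 CPM, without overlap. Plk2 and Pcdh8 were called in all 12 alternatives, while Nptx2 was not called in 7, Plat in 6 and Rasl11a in 3 (without preparation 1, 3 or 8).

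Of 20 kinase-pathway feedback inhibitors tested, 5 rose (25%, against 0.669% of all genes called; median 0.194). Errfi1, which inhibits the EGF receptor, rose by 0.89 (95% interval 0.76 to 1.02, adjusted p = 8.8e-06), from 39.3, 50.9, 58.5, 56.1 and 53.3 CPM to 82.7, 99.4, 99.2, 99.9 and 100.3 CPM. Dusp5, a nuclear phosphatase for ERK, rose by 0.66 (95% interval 0.53 to 0.80, adjusted p = 0.00015). Sik1, Dusp4 (0.33) and Spry2 (0.31) were the others, of which Dusp4 was not called in 6 of the 12 alternatives and Spry2 in 5. Dusp1 and Trib1 were not called, and Trib1, a pseudokinase, had a value of 0.28 (95% interval 0.12 to 0.44, adjusted p = 0.2).

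Of 22 growth-arrest, stress and survival genes, 5 rose (22.7%, against 0.669%; median 0.209), namely Tob2 (0.58), Gadd45b (0.54), Sgk1 (0.48), Pim3 (0.37) and Mcl1 (0.31). Pim3 and Mcl1 were each not called in 4 of the 12 alternatives. Mcl1 is an anti-apoptotic relative of BCL2 and Sgk1 a kinase of salt and stress signalling. Of 10 heat shock and chaperone genes, Dnajb1, an HSP40 co-chaperone, rose by 0.47 and the other 9 were not called (10%, against 0.669%).

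None of 29 glutamate and GABA-A receptor subunit genes (median -0.012), 42 voltage-gated and rectifier channel genes (-0.020) or 39 mRNA decay factor genes (-0.016) was called by edgeR. At the background share of 0.669%, lists of this size would hold fewer than 1 call each. The decay factor nearest to a call was Dcp1a, a subunit of the decapping complex, at -0.30 (adjusted p = 0.068). Zfp36, which binds AU-rich elements, was at 0.834 CPM before and 1.16 CPM after TTX, too low for a firm value. None of the 7 of 13 mitochondrially encoded mRNAs that could be tested (median -0.115, 6 negative) and none of 77 cytosolic ribosomal protein genes (median 0.049, 64 of 77 positive) was called.

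Outside the lists lay 55 of the 93 rises. Apart from those given above, the larger ones included the lactate transporter gene Slc16a1 (0.91, 52.4 ± 4.61 to 100.3 ± 13.4 CPM), the secreted protease gene Adamts1 (0.98, 77.2 ± 10.9 to 154 ± 22.6 CPM) and the insulin receptor substrate gene Irs2 (0.97, 115 ± 12.5 to 228 ± 9.57 CPM). Slc2a1, which encodes the glucose transporter GLUT1, rose by 0.52. Smad7 (0.63), the brake on TGF-beta signalling, and Nfkbiz (0.56), a nuclear regulator of NF-kB, were 2 more. Pou3f3, a neural transcription factor, rose by 0.26, among the smallest changes called, and Pou3f3 was not called in 6 of the 12 alternatives and Nfkbiz in 4. These genes are outside the rule for named genes and were chosen after their values were seen. The rise of 2.09 belonged to Gm43359, a transcript under 5 CPM that lies within Atp2a2 on the same strand, and its value is uncertain for that reason.

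**Figure D4:**
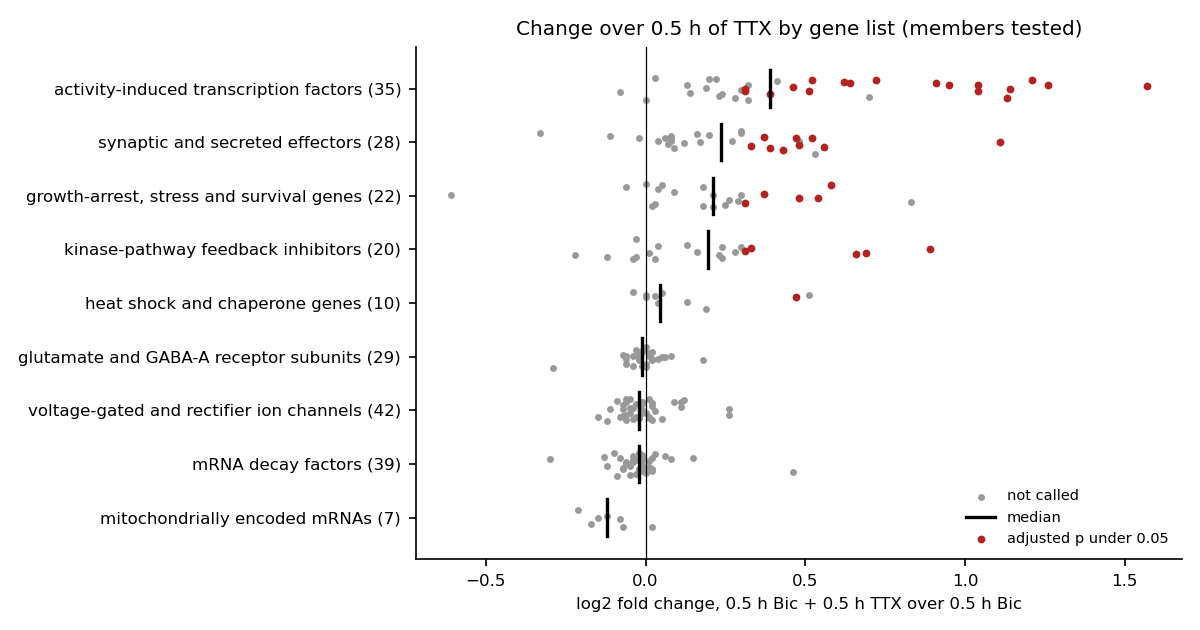
Log2 fold change of SP TTX over 0.5 h Bic (horizontal axis) for each tested member of 9 gene lists, with the number tested in brackets; red points have an adjusted p under 0.05 and bars mark medians. Called members lie to the right of 0 in the upper 5 lists, with medians from 0.393 down to 0.043, and the lower 4 lists hold no called member.

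The genes that firing itself induces were then counted in sets chosen from libraries outside the comparison. Of 443 genes that 1 h Bic raised over control (2.92% of genes tested there, with 4.07% called either way), 438 were tested over the block. Of these 84 rose (19.2%, against 0.616% of all genes) and 2 fell (0.457%, against 0.0530%), with a median log2 fold change of 0.152 and 339 positive values. The 2 that fell were Mbd6 and Ptp4a1. Of 175 genes that 1 h Bic lowered (1.15%), 174 were tested, and of these none was called in either direction by edgeR, and the median was -0.064. Of 1686 genes that rose between 1 h and 2 h of Bic (11.0%, with 23.5% called either way), 1657 were tested, and of these 83 rose over the block (5.01%) and none fell. Of 1921 that were lowered between 1 h and 2 h of Bic (12.5%), none rose and 4 fell (0.208%). The counts moved with the block and with single preparations: 48 of the 438 rose without the preparation block and 54 to 108 with 1 preparation left out.

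The median span of the 93 was 14744 bp, beside 23974 bp over all genes tested and 70428 bp for the 8 falls. The rises could be parted by their level when TTX was added. For 27 of them 0.5 h Bic was at least 1.5 times control, and their median span was 7356 bp. For 66 it was under 1.5 times control, and theirs was 19864 bp; Bdnf, Homer1 and Zbtb10 are among these. These are descriptions with no test. The lower quartile of the span was 6714 bp for the rises and 9284 bp for all genes tested.

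The same TTX step can be set beside that of the long protocol, in which 1 h of TTX followed 1 h of Bic, and the difference of the changes was tested in a fit of 20 libraries. The change over the short block was called above that over the long block for 730 genes (4.64%) and below it for 1212 (7.71%). Several genes with no called change over the short block fell over the long one. Ccn1 changed by -5.34 over the long block, to 8.21 ± 2.03 CPM, near its control level of 7.99 ± 1.74 CPM, and the short block change was higher by 4.99 (95% interval 4.61 to 5.37, adjusted p = 3.6e-13). Btg2 changed by -3.18 (difference 3.41), Dusp1 by -2.57 (difference 2.55) and Arc by -1.81 (difference 1.94). Npas4 changed by -0.82, with a difference between blocks of 0.71 (95% interval 0.35 to 1.07, adjusted p = 0.0086). Fos changed by -0.15 (95% interval -0.31 to 0.01, adjusted p = 0.14) over the long block, and its difference between blocks, 0.27, was not called (adjusted p = 0.16).

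Several genes that rose over the short block fell over the long one. Nr4a1 changed by -1.55, Adamts1 by -0.73, Tob2 by -0.78, Fbxo33 by -0.47 and Egr1 by -0.35, each called over the long block and each different from the short one. Tiparp rose over both, by 1.88 and 0.79. Homer1 and Inhba went the other way, rising by 2.33 and 2.06 over the long block, to 839.6 ± 71.5 and 44.1 ± 4.76 CPM, with short-minus-long differences of -1.95 and -1.59. For Bdnf the changes were 0.56 and 0.87, and their difference was not called (adjusted p = 0.068). Klf10, not called over the short block, rose by 2.58 over the long one.

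Of the 93 rises, 63 were also called higher over the long block (14.8% of all genes tested were), 9 lower (14.4%) and 21 not called. Of the 8 falls, 1 was higher over the long block, 3 were lower and 4 were not called; the higher one was Rock1. Ptp4a1 fell over each, with log2 fold changes of -1.55 and -1.65, with a difference of 0.07 (95% interval -0.64 to 0.78).

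**Figure D5:**
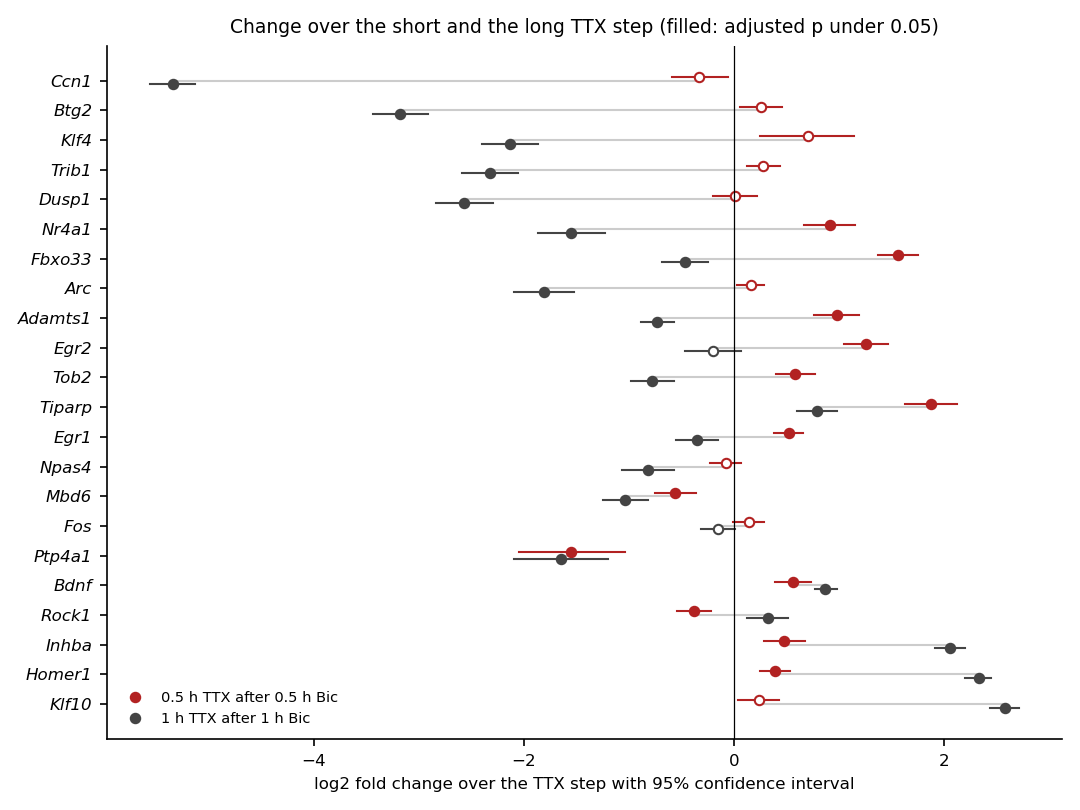
Log2 fold change over the TTX step (horizontal axis, with 95% intervals) for 22 genes, in red for 0.5 h TTX after 0.5 h Bic and in black for 1 h TTX after 1 h Bic, joined by grey lines; filled points have an adjusted p under 0.05. Ccn1 at the top lies at -5.34 over the long block and -0.33 over the short one; Klf10, Homer1 and Inhba at the bottom rose more over the long block.

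Promoter windows from RefSeq (GRCm38.p6, 250 bases before and 50 after each annotated start) were found for 71 of the 93 rises and 11250 of the genes tested, and searched on both strands. A full cAMP response element (CRE, TGACGTCA), the site of CREB, was in a window of 7 of the 71 genes (9.86%), against 3.56% of genes tested and 1.79% of all windows. Its core TGACG, which every CRE contains, was in 41 of 71 (57.7%), against 34.7% of genes tested and 20.8% of all windows. The CArG box, the SRF site, was in 3 (4.23%, against 1.58% and 1.63%) and the Egr site GCGTGGGCG in 4 (5.63%, against 1.42% and 0.612%). The AP-1 site TGANTCA was in 4 (5.63%, against 5.96% and 7.81%). Among the 323 genes with a window that 1 h Bic raised over control, a set that holds 84 of the 93 rises, the shares were 6.5% for the CRE, 48% for its core, 1.55% for the CArG box, 3.1% for the Egr site and 5.57% for the AP-1 site. Risen genes had 1.46 windows each and tested genes 1.29. Counted per window, the CRE was in 6.73% and 2.95% and its core in 47.1% and 29.9%. A match is a run of letters, not a shown binding site.

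The CRE genes among the rises were Arl5b, Ccnl1, Errfi1, Maff, Plk2, Topors and Zdbf2, and those with a CArG box were Dusp5, Egr2 and Rnd3. The 250 bases before the start are shown 5′ to 3′ for 3 of these, and for Dusp1 and Btg2, which have the same CRE letters and were not called, so that the motifs can be seen in place. Capitals mark the CRE, or for Dusp5 the CArG boxes, which lie side by side.
Arl5b (chr2:15055070-15055319, plus strand, CRE 121 bases before the start): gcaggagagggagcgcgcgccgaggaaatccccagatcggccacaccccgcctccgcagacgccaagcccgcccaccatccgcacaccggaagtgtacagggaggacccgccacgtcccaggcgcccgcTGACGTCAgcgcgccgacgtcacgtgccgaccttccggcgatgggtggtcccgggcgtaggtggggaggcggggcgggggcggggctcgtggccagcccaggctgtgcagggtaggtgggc
Maff (chr15:79347270-79347519, plus strand, CRE 29 bases before): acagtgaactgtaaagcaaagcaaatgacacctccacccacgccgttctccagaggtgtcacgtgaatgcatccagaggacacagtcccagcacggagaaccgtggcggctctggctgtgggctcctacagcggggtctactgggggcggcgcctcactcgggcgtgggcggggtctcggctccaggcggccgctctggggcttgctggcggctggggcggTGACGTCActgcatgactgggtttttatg
Dusp5 (chr19:53528895-53529144, plus strand): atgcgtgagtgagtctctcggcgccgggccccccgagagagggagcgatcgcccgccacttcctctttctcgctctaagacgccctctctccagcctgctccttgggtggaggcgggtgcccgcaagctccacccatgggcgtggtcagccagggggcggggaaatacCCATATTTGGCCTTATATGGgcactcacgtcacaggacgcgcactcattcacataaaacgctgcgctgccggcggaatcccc
Dusp1 (chr17:26508473-26508722, minus strand, CRE 143 bases before): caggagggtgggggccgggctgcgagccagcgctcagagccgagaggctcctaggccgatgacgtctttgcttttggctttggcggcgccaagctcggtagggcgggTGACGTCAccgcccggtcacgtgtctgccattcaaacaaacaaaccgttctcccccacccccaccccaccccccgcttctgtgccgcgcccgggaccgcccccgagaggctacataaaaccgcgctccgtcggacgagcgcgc
Btg2 (chr1:134079156-134079405, minus strand, CRE 166 bases before): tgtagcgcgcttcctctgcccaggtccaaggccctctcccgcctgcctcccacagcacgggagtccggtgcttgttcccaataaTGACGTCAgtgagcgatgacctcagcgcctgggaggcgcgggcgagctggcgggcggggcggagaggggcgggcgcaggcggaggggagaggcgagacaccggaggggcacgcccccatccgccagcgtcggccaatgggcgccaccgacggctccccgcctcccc

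The log2 fold changes of these CRE genes over the block were not alike in size, with Maff at 1.04, Arl5b at 1.07, Btg2 at 0.26 and Dusp1 at 0.01. The windows shown for Arl5b, Maff and Dusp1 lie inside the span of their gene models.

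AU-rich elements in the 3′ end of an mRNA are known to speed its decay. The heptamer TATTTAT, read on the mRNA strand only, was in the 3′ untranslated region of 43 of 91 risen genes with one (47.3%), against 31.4% of genes tested and 42% of those that 1 h Bic raised. Their median 3′ untranslated length was 1574 bases, against 1248. Among regions of at least 1000 and under 3000 bases the shares were 46.8% of rises, 37.6% of genes tested and 45.1% of those that 1 h Bic raised. The longer TTATTTATT, which contains the heptamer, was in 14.3% of rises, 8.48% of genes tested and 13% of those that 1 h Bic raised, and within the same length class in 8.51%, 9.64% and 11.8%. Sites from 2 genes that were not called and 2 that rose are shown 5′ to 3′ as DNA letters of the GENCODE transcripts, with the element in capitals.
Fos: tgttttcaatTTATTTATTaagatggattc
Dusp1: gagctggtccTTATTTATTtaacacccccc
Bdnf: gttctacaatcTATTTATtggacatatcca
Inhba: cttatatttaTTATTTATTggaatcaatct
The element was present among rises and among genes not called. Inhba (0.48) had 5 heptamers in 4492 bases and Dusp1 (0.01) had 3 in 690. Npas4, Arc and Nr4a1 had none.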

How the data were processed

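Counts per gene of 10 libraries (5 per group) were compared, and 35 further libraries of the same 5 culture preparations served as side groups. The deposited values are raw counts: the authors aligned single-end reads of a directional poly-A library to GRCm38 with STAR 2.5.4b and counted them by strand with featureCounts 1.6.5, leaving out multi-mapping reads and reads that overlap several genes. GENCODE M21 gave names to 54495 of 54532 gene IDs.

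Counts were fitted with edgeR 4.0.16 (R 4.3.3), with TMM scaling, filterByExpr, culture preparation as a block and the quasi-likelihood test, using only the libraries compared; a call is a Benjamini-Hochberg adjusted p under 0.05, and intervals are 95% intervals of the fitted log2 fold change. All adjusted p-values below are of this kind, two-sided, and over all genes tested. The preparation number pairs the libraries: same-number correlations of deviations ran from 0.211 to 0.530, and 4 of 5 SP TTX libraries were closest to their own number. Levels are TMM-scaled CPM.

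On simulated counts for the comparison of SP TTX with 0.5 h Bic (15091 genes), the fit recovered 48.4% of genes changed 1.25-fold, 76.8% at 1.5-fold, 92.8% at 2-fold and 98% at 4-fold, and 6.73% of its calls were false. Alternatives were DESeq2 1.42.0 with the block, DESeq2 size factors, every gene with at least 1 read, no block, a fit over all 45 libraries, leaving out each preparation and, chosen after seeing the data, libraries thinned to equal depth.

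The members and lists were chosen with earlier results of these data known. The genes named are the 12 largest rises and falls that passed the test, went the same way in 5 of 5 preparations and reached 5 CPM (only 5 falls did), 11 activity genes whatever their values, members of 10 lists, and every gene of a set of 5 or fewer; others are marked in the text.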

Additional observations from a re-analysis of the deposited data

Results flagged for a closer look

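In 4 of the 119 genes followed, the log2 ratio of SP TTX to 0.5 h Bic in 1 preparation stood far from the other 4, a kind of gap that chance gives in about 1 of 20 groups. Fosb in preparation 1 had a ratio of 1.68, against 0.60 to 0.88 in the others, and the 0.5 h Bic library of that preparation was the one with low activity-gene levels. Egr3 in preparation 8 had 0.82, against 1.08 to 1.14, Dbx2 in preparation 8 had 0.12, against 0.64 to 0.81, and Jun in preparation 7 had 0.08, against 0.36 to 0.44. Each of the 4 genes was still called without the preparation in question.

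Of the 119 genes followed, 63 changed differently over the short and the long block by the test of the difference. The difference (short minus long, log2) was positive for 39 and negative for 24. Over all genes tested, 4.64% were called with a positive and 7.71% with a negative difference, 12.3% in all. Of the 119, 101 are followed because they were called over the short block. That change is part of the difference, so these counts describe the genes and are not a test. A subset of 22 of the 119, chosen after their values were seen, was set side by side, and 19 of these differed, 15 of them with a positive difference. It was 4.99 for Ccn1, 3.41 for Btg2, 2.81 for Klf4, 2.59 for Trib1 and 2.55 for Dusp1. It was 2.42 for Nr4a1, 2.01 for Fbxo33, 1.94 for Arc, 1.68 for Adamts1 and 1.42 for Egr2. It was 1.35 for Tob2, 1.06 for Tiparp, 0.84 for Egr1, 0.71 for Npas4 and 0.47 for Mbd6. It was negative for Klf10 (-2.35), Homer1 (-1.95), Inhba (-1.59) and Rock1 (-0.71). The blocks differed in length and in the time of Bic before them, and these cannot be told apart.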

How the results depend on the processing

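Over 0.5 h of TTX, the count of 93 rises and 8 falls was 202 and 39 with every gene that had at least 1 read, and the fit over all 45 libraries gave 24 falls. Without the replicate block it was 48 and 4. Leaving out 1 preparation gave 54 to 136 rises and 4 to 11 falls. Against 1 h Bic, 5 higher and 71 lower genes became 81 and 241 with every gene that had a read, 1 and 34 without the block, 9 and 112 in DESeq2, 26 and 112 over all 45 libraries, and 0 to 53 and 32 to 134 with 1 preparation left out. Against control, 205 and 13 became 395 and 59 with every gene that had a read, 329 and 83 over all libraries, 7 lower genes without the block under either filter, and 140 to 229 and 3 to 11 with 1 preparation left out. The difference between blocks, 730 and 1212, became 260 and 525 without the block, 200 and 392 without it and with every gene, and 427 to 542 and 609 to 1009 with 1 preparation left out. Of genes that 1 h Bic raised, 84 rose and 2 fell, or 48 rose without the block, and 54 to 108 rose and 2 to 4 fell with 1 preparation left out. Of those raised between 1 h and 2 h, 83 rose and 0 fell, or 42 rose without the block, and 49 to 114 rose and 0 to 1 fell with 1 preparation left out.

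Of 1212 alternative values for the 101 called genes, none changed sign and 235 were no longer called, 49 of them without the block and 43 without preparation 3. Dusp1 (0.01) ran from -0.13 to 0.09, at -0.13 without preparation 1 and -0.00 without preparation 8, and Yod1 (0.09) ran from -0.02 without preparation 7 to 0.14 without preparation 8. Apart from the smaller number of libraries in some fits, the cause was not tested. Thinning all 10 libraries to the depth of the shallowest ended 14 calls.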
